A study of Bos indicus x Bos taurus with 20 samples.

Results

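STC1 and STC2 encode the stanniocalcins, secreted glycoprotein hormones of vertebrates, and are 2 of the 30675 genes in the read-count table of bovine 2-cell and 8-cell embryos. They were chosen by name with their levels in these libraries already known, so every level, fold and order of STC1 and STC2 is given as a description, with no test. Zygotes (Bos indicus x Bos taurus, genotype WT) were injected with METTL7A mRNA made by in vitro transcription or with vehicle, and whole embryos were sequenced from polyA RNA at the 2-cell and the 8-cell stage. The 4 groups, each with 2 libraries, are called Control 2-cell, METTL7A 2-cell, Control 8-cell and METTL7A 8-cell, where Control stands for vehicle. The study asked what raised METTL7A does in development before implantation. No group received another mRNA, so an effect of METTL7A and an effect of injecting mRNA as such cannot be told apart. How many embryos went into a library is not given in the sources used here. The 12 further libraries of the series, from the inner cell mass and trophectoderm, carry identifiers that were not paired with STC1 or STC2 and are not used here.

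Stanniocalcin was first known from bony fish, where it lowers calcium uptake at the gills. In mammals STC1 and STC2 act locally in many tissues, on calcium and phosphate handling and on growth. Human STC1 and STC2 bind and block the pappalysins PAPPA and PAPPA2, proteases that cut insulin-like growth factor binding proteins (IGFBPs) and so set insulin-like growth factors (IGFs) free. In human cells STC1 is a target of hypoxia-inducible factors, and STC2 is a target of ATF4 in the unfolded protein response. STC1 is also made by cells of the mammalian ovary, and cumulus cells surround the oocyte until after fertilisation.

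The libraries held 15781017 to 20737404 gene counts, with 17914 to 20242 genes detected. The injected transcript made up 1.61% to 5.23% of the counts in the 4 injected libraries, and 7.36 to 19.1 CPM (read counts scaled to library size by the TMM method) in the 4 Control libraries, so the labels and the injected gene match. Libraries of a group differed beyond counting noise, least between the Control 2-cell libraries (chi-square per degree of freedom 2.41) and most between the Control 8-cell libraries (299.2). Control 8-cell replicate 1 stood apart: markers of fibroblasts and other stromal cells summed to 8508 CPM there and to 1480 CPM in replicate 2, against 150.3 and 163.1 CPM in METTL7A 8-cell embryos. All 15 oocyte and early blastomere markers in the table, such as GDF9, BMP15 and ZP3, were above 1 CPM in every library, as whole embryos should show. The libraries are bulk samples, in which fewer cells of a type and less RNA per cell cannot be told apart. The labels do not state whether the replicates are independent collections of embryos, so the tests see only the spread between these libraries, which may be technical.

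STC1 ran in opposite directions under METTL7A at the 2 stages. It was 10.3-fold higher in METTL7A than in Control embryos at the 2-cell stage and 24.7-fold lower at the 8-cell stage, from group means. In Control embryos it stood 45.2-fold higher at the 8-cell than at the 2-cell stage, and in METTL7A embryos 5.66-fold lower. STC2 was near 0 in all 2-cell libraries, appeared at the 8-cell stage in both treatments, and was there 2.98-fold higher in METTL7A than in Control embryos.

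STC1 read counts were 96 and 88 in the Control 2-cell libraries, which scaled to 3.96 and 3.81 CPM. In the METTL7A 2-cell libraries the counts were 411 and 1288, or 23.4 and 57.0 CPM. Both injected libraries lay above both Control libraries, with library-to-library folds of 5.90 to 14.97. The group means were 40.2 ± 23.8 CPM (SD, n = 2) in METTL7A and 3.88 ± 0.108 CPM (SD, n = 2) in Control 2-cell embryos. The fitted log2 fold change was 3.37 (SE 0.481). The injected pair differed from each other by 2.44-fold, more than any other pair of STC1 replicates, and the fitted value was 2.58 without replicate 2 and 3.91 without replicate 1. Among all 16149 genes tested, this value lay at the 99.4th percentile of the METTL7A log2 fold changes at the 2-cell stage. In that comparison 0.0124% of all genes passed an adjusted p of 0.05 (edgeR, quasi-likelihood test), and these 2 genes were METTL7A itself and LOC781439, which rose with it. At an unadjusted p under 0.05 the count was 1196.

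Among 8-cell embryos, STC1 counts were 3943 and 2215 in Control, or 221.4 and 130.0 CPM. In METTL7A 8-cell embryos they were 104 and 78, or 7.68 and 6.53 CPM. The groups did not overlap, and the lower Control library was 16.9-fold above the higher METTL7A library. The means were 175.7 ± 64.6 CPM (SD, n = 2) in Control and 7.11 ± 0.812 CPM (SD, n = 2) in METTL7A embryos, with a fitted log2 fold change of -4.63 (SE 0.508). This value lay at the 3.39th percentile of all genes tested, nearer to the body of the genes than the value at the 2-cell stage. In that comparison 5.29% of all genes were called, 119 higher and 735 lower. Without Control 8-cell replicate 1 the STC1 value was -4.20, and without replicate 2 it was -4.94.

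Ordered by level, Control 8-cell embryos had the most STC1, followed by METTL7A 2-cell, METTL7A 8-cell and Control 2-cell embryos. No group overlapped with the next in CPM. The gap was narrowest between METTL7A 8-cell (lowest library 6.53 CPM) and Control 2-cell embryos (highest library 3.96 CPM), and it depended on the scaling. As CPM of the raw gene counts, without TMM scaling, STC1 stood at 6.59 (95% exact interval 5.38 to 7.99) and 4.70 (3.72 to 5.87) in METTL7A 8-cell embryos and at 4.63 (3.75 to 5.65) and 4.48 (3.60 to 5.53) in Control 2-cell embryos. These intervals cover counting error only, and those of both METTL7A 8-cell libraries overlap both Control 2-cell intervals. The fitted log2 fold change from the 2-cell to the 8-cell stage was 5.497 (SE 0.528) in Control and -2.50 (SE 0.466) in METTL7A embryos. The METTL7A value was -1.74 without METTL7A 2-cell replicate 2 and -3.06 without replicate 1. The METTL7A effect at the 8-cell stage minus that at the 2-cell stage was -8.00 (SE 0.698).

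**Figure D1:**
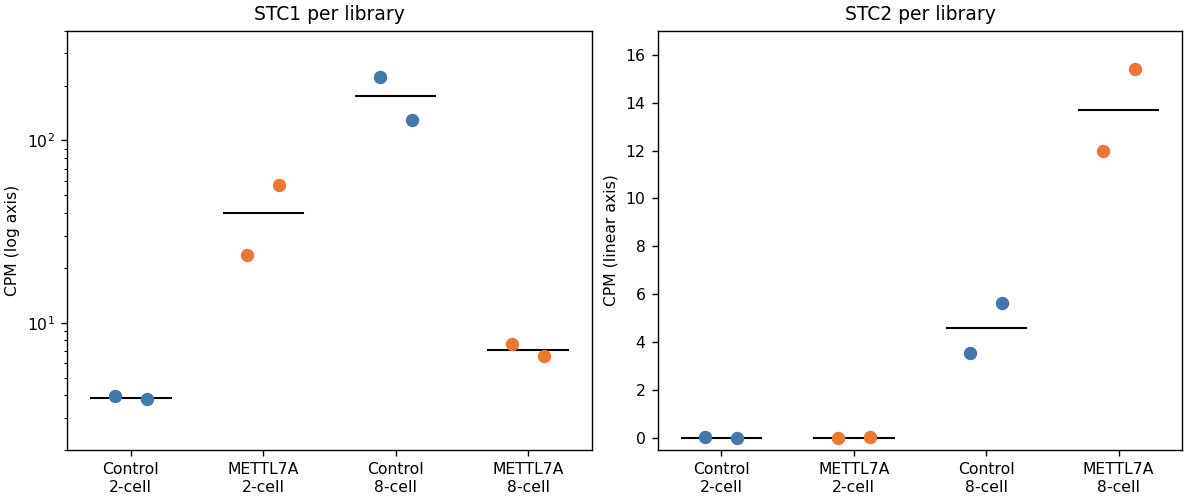
STC1 (left, log axis) and STC2 (right, linear axis) in CPM in each library, with points for libraries, side by side for replicates 1 and 2, and a black line for the mean of each group. STC1 was highest in Control 8-cell embryos (221.4 and 130.0 CPM) and lowest in Control 2-cell embryos (3.96 and 3.81 CPM), while STC2 was near 0 in all 4 libraries of the 2-cell stage and highest in METTL7A 8-cell embryos (11.97 and 15.4 CPM).

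STC2 had 1 and 0 counts in the Control 2-cell libraries and 0 and 1 in the METTL7A 2-cell libraries. The floor of 3 counts used here stands at 0.124 to 0.171 CPM across these 4 libraries. All 4 lay below it, so no fold between treatments is given at this stage. Among 8-cell embryos, STC2 counts were 63 and 96 in Control, or 3.54 and 5.63 CPM. In METTL7A 8-cell embryos they were 162 and 184, or 11.97 and 15.4 CPM. Both METTL7A libraries lay above both Control libraries, by 2.12-fold to 4.36-fold. The means were 13.7 ± 2.44 CPM (SD, n = 2) against 4.59 ± 1.48 CPM (SD, n = 2), a fitted log2 fold change of 1.58 (SE 0.588) that ranged from 1.27 to 1.97 when libraries were left out 1 at a time. With METTL7A and LOC781439 removed from the table, the TMM scaling was computed anew. The median of all genes in this comparison then moved by -0.24 on the log2 scale and the STC2 value was 1.34.

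Summed over both libraries of a group, STC2 counts went from 1 at the 2-cell stage to 159 at the 8-cell stage in Control embryos, a ratio of 216 (95% exact interval 38.2 to 8586). In METTL7A embryos they went from 1 to 346, a ratio of 545.5 (97.3 to 21606). The width of both intervals comes from the single count at the 2-cell stage, and without the 2-cell library that has no count the ratios were 107.1 and 295.5. A level at least 4-fold higher in every 8-cell than in every 2-cell library of both treatments was seen in 1431 of the 13892 genes tested with a mean of 1 CPM or more, or 10.3%, so many genes shared this course. For such folds a library with fewer than 3 counts on the lower side was set at 3 counts. This floor and the threshold of 4-fold were set after the values were seen.

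The course of STC1 between treatments was counted with the same threshold. It was drawn from the values of STC1, so STC1 meets it by construction. It is another kind of pattern than the rise with stage above, so the counts are not compared. Of the same 13892 genes, 2 were at least 4-fold higher in every METTL7A than in every Control library at the 2-cell stage and at least 4-fold lower in every METTL7A library at the 8-cell stage, with the same floor of 3 counts. These were STC1 and LOC100139670. LOC100139670 was low at the 2-cell stage, with 10 and 18 counts in METTL7A against 3 and 3 in Control embryos. Among 8-cell embryos it had 2313 and 795 counts in Control and 4 and 0 in METTL7A. At the 2-cell stage alone 28 of the 16149 genes were 4-fold higher in this way, and at the 8-cell stage alone 487 were 4-fold lower.

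The sums of 2 of the marker lists, stromal and granulosa, cumulus and luteal, were lower in METTL7A than in Control 8-cell embryos, as STC1 was. The 16 markers of fibroblasts and other stromal cells summed to 8508 and 1480 CPM in Control 8-cell embryos and to 150.3 and 163.1 CPM in METTL7A 8-cell embryos, and 7 of the 16 fell in METTL7A embryos (edgeR, adjusted p under 0.05), where 4.55% of all genes did. Among these, VIM, an intermediate filament protein of mesenchymal cells, stood at 612.0 and 64.3 CPM in Control and at 1.85 and 6.11 CPM in METTL7A 8-cell embryos. FBN1 and COL6A3 of the stromal list had positive log2 fold changes (0.24 and 0.12) and did not pass. The 24 markers of granulosa, cumulus and luteal cells summed to 1933 and 343.5 CPM in Control and to 223.2 and 193.1 CPM in METTL7A 8-cell embryos, and 5 of the 17 tested fell. Without METTL7A 8-cell replicate 1 or replicate 2 none of either list was called, without METTL7A 2-cell replicate 1 or replicate 2 the counts were 3 and 0, and without Control 8-cell replicate 2 they were 12 and 15. CYP11A1, the side-chain cleavage enzyme that starts steroid synthesis, stood at 463.6 and 49.5 CPM in Control and at 0.0739 and 0 CPM in METTL7A 8-cell embryos. FSHR, the receptor for follicle-stimulating hormone, had 62 and 11 counts in Control and 0 in both METTL7A 8-cell libraries and did not pass (adjusted p = 0.0604). LHCGR, the receptor for luteinising hormone, had 1 count in all 8-cell libraries together and could not be tested. STAR, CYP19A1, HAS2, PTGS2 and GREM1 of the same list had positive log2 fold changes, from 0.16 to 0.69, and did not pass either. The trophectoderm and epithelium sum overlapped between treatments, at 598.0 and 266.4 CPM in Control and 310.2 and 453.3 CPM in METTL7A 8-cell embryos.

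The size of the stromal sum and of the granulosa, cumulus and luteal sum did not follow STC1 in proportion. Control 8-cell replicate 1 exceeded replicate 2 by 1.70-fold for STC1, by 5.75-fold for the stromal sum and by 5.63-fold for the granulosa, cumulus and luteal sum. Set against the mean of the METTL7A 8-cell libraries, replicate 2 alone was 18.3-fold higher for STC1, 9.44-fold for the stromal sum and 1.65-fold for the granulosa, cumulus and luteal sum. Much of the last sum in METTL7A 8-cell embryos was HAS2, VCAN and STAR (means 67.2, 38.1 and 38.0 CPM). These genes were also present in Control 2-cell embryos (means 140.1, 57.1 and 214.9 CPM), which had no CYP11A1 count. The fold of this sum is therefore not that of CYP11A1. At the 2-cell stage the stromal sum was lower in METTL7A (88.8 and 92.2 CPM) than in Control embryos (151.7 and 153.7 CPM), while STC1 was higher. Most of the stromal sum at this stage was a single gene, FBN1, with means of 72.7 CPM in METTL7A and 135.7 CPM in Control embryos. The sum there thus says little about the other stromal markers. The granulosa, cumulus and luteal sum was 466.7 and 533.4 CPM in METTL7A and 470.8 and 466.9 CPM in Control 2-cell embryos. CYP11A1, LHCGR, AREG, EREG and TAGLN had no count in any of the 4 libraries of the 2-cell stage. The part of other cells in the 8-cell difference of STC1 was not tested.

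**Figure D2:**
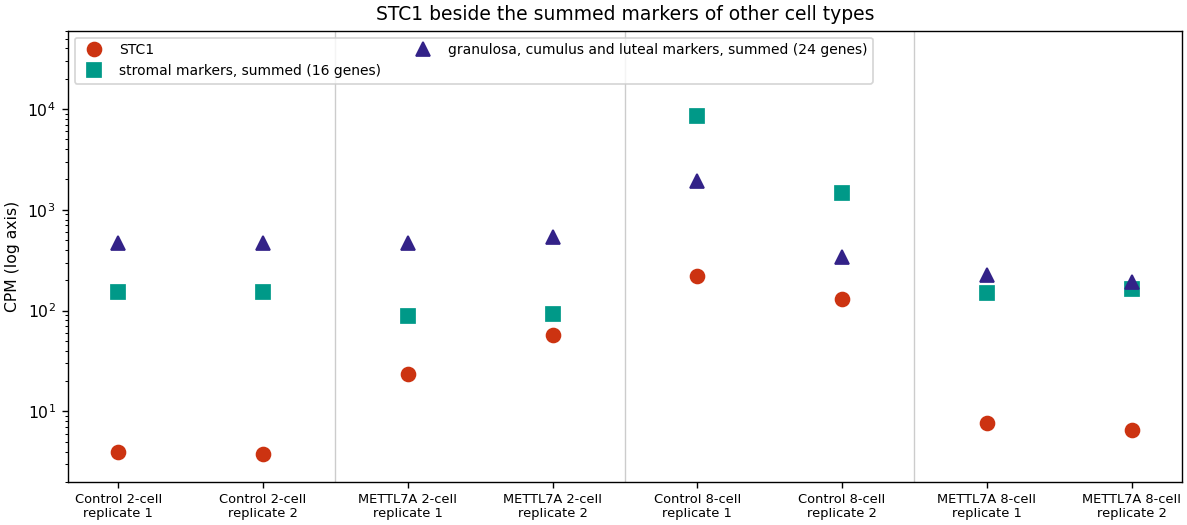
STC1 in CPM (circles) in each of the 8 libraries, on a log axis, beside the summed CPM of 16 stromal markers (squares) and of 24 granulosa, cumulus and luteal markers (triangles). At the 8-cell stage STC1 and the stromal sum were higher in both Control libraries, whereas at the 2-cell stage STC1 was higher and the stromal sum lower in the METTL7A libraries. Most of the stromal sum at the 2-cell stage was FBN1.

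The pappalysins, which human stanniocalcins block, were followed together with IGFBPs, IGFs and their receptors as a list of 16. Of these, 11 passed the filter on low counts. None of the 11 passed the test between METTL7A and Control embryos in 2-cell embryos. At the 8-cell stage 2 of the 11 (18.2%) fell in METTL7A embryos and 0 rose, where 5.29% of all genes were called and 4.55% fell. The median log2 fold change was -0.43 over the 11 and 0.14 over all genes tested. Both were binding proteins. IGFBP5 stood at 381.0 and 94.1 CPM in Control and at 2.14 and 2.93 CPM in METTL7A 8-cell embryos (log2 fold change -6.55, SE 0.711, adjusted p = 0.00720). IGFBP7 stood at 937.9 and 89.6 CPM in Control and at 0.960 and 0.419 CPM in METTL7A 8-cell embryos (log2 fold change -9.51, SE 1.22, adjusted p = 0.0131). Control and METTL7A libraries did not overlap for either gene, though the Control pair differed by 4.05-fold for IGFBP5 and by 10.5-fold for IGFBP7. Replicate 1 was the higher, as it was by 5.75-fold for the stromal markers, and the part of other cells was not tested. Both calls were lost without METTL7A 8-cell replicate 1 or without replicate 2, where the adjusted p reached 0.308 against a lowest value of 8.0e-38 for IGFBP5 and 2.01e-65 for IGFBP7 over all alternatives.

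The proteases themselves did not pass the test, though PAPPA did with no filter on low counts and with DESeq2. INSR, the insulin receptor, passed with the same alternatives. IGFBP6 (adjusted p = 0.0537, edgeR) passed with them and with METTL7A and LOC781439 left out. PAPPA stood at 26.2 and 2.23 CPM in Control and at 1.11 and 2.43 CPM in METTL7A 8-cell embryos (adjusted p = 0.101), so the difference in means came from Control 8-cell replicate 1. PAPPA2 stood at 4.44 and 8.69 CPM in Control and at 10.6 and 8.46 CPM in METTL7A 8-cell embryos (adjusted p = 0.485). At the 2-cell stage, where STC1 was higher in METTL7A embryos, PAPPA stood at 1.32 and 1.60 CPM in Control and at 2.05 and 3.05 CPM in METTL7A embryos. PAPPA2 there stood at 3.88 and 4.93 CPM in Control and at 5.41 and 5.22 CPM in METTL7A embryos.

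From the 2-cell to the 8-cell stage in Control embryos 5 genes of the list rose and 3 fell of the 11 tested, where 52.7% of all genes were called. PAPPA, IRS1, an adaptor of insulin and IGF signalling, IGFBP5, IGFBP6 and IGFBP7 rose. IGFBP6 went from 0 counts in both 2-cell libraries to 300 counts over both 8-cell libraries, at least 136-fold higher against 3 counts over the group. IGFBP3, the main IGF carrier of mammalian serum, fell from 80.5 and 81.5 CPM to 9.83 and 9.74 CPM. The receptors IGF1R, which carries the growth signal, and IGF2R, which clears IGF2, fell as well, with log2 fold changes of -1.55 and -2.00. PAPPA was lost in 5 alternatives, IRS1 in 4, IGF2R in 6 and IGF1R in 1. In METTL7A embryos IGFBP3 alone passed the test, falling from 103.6 and 124.2 CPM to 9.01 and 16.7 CPM, and 40.2% of all genes were called. Such a call in 1 treatment and not in the other is no test of a difference: the METTL7A effect differed between stages for 0 of the 11, in a comparison that called 0.0124% of all genes, which are 2 genes in 16149. IGFBP1, IGFBP4, IGF1, IGF2 and IRS2 were too low to be tested, and IGFBP4 had counts in the Control 8-cell libraries only, 44 and 1. IGFBP2 and INSR were tested and passed in none of the 4 comparisons in the main fit.

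**Figure D3:**
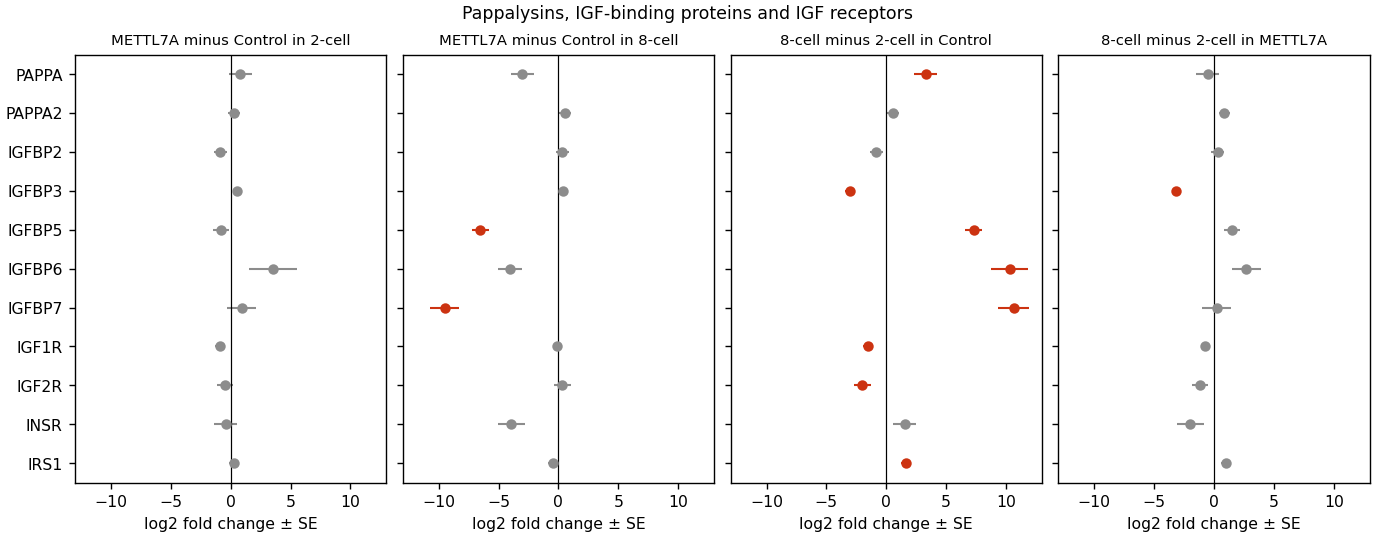
Fitted log2 fold changes with their SE for the 11 tested genes of the stanniocalcin and IGF list in 4 comparisons, in red where the adjusted p was under 0.05 and grey otherwise. IGFBP5 and IGFBP7 were lower in METTL7A than in Control embryos at the 8-cell stage and rose with stage in Control embryos, and IGFBP3 fell with stage in both treatments.

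Genes of calcium and phosphate handling, the oldest known field of action of stanniocalcins, were tested for 26 of 32 list members. At the 2-cell stage 0 passed between treatments. In 8-cell embryos 2 of the 26 (7.69%) passed, near the 5.29% of all genes. CALB1, a cytosolic calcium-binding protein, was higher in METTL7A 8-cell (108.1 and 201.8 CPM) than in Control embryos (34.9 and 36.4 CPM; log2 fold change 2.12, SE 0.437, adjusted p = 0.0347). MICU2, a regulatory subunit of the mitochondrial calcium uniporter, was lower, at 3.84 and 3.35 CPM against 84.1 and 10.98 CPM (log2 fold change -3.72, SE 0.811, adjusted p = 0.0400). Each of these calls was lost in 6 alternatives, among them the 2 groups alone, with adjusted p up to 0.308. The phosphate carrier SLC20A1 (adjusted p = 0.920), the calcium store sensor STIM1 (0.621) and the mitochondrial carrier UCP2 (0.977) did not pass there. The list median was 0.02 against 0.14 over all genes.

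With stage in Control embryos 5 of the 26 rose and 13 fell, or 69.2% against 52.7% of all genes called. MCU, the pore of the mitochondrial uniporter, fell from 121.5 and 120.6 CPM to 21.8 and 20.1 CPM. TRPV6, an epithelial calcium channel, fell from 1320 and 1336 counts to 13 and 46. SLC8B1, the mitochondrial sodium-calcium exchanger, and STIM1 fell too, with log2 fold changes of -3.04 and -2.58. SLC34A2, a sodium-phosphate cotransporter, shared the rise of STC2 with stage, though its treatments overlapped at the 8-cell stage, unlike those of STC2. It had 0 counts in all 4 libraries of the 2-cell stage and 6.96 and 18.0 CPM in Control and 14.1 and 13.2 CPM in METTL7A 8-cell embryos. That is at least 195-fold higher in Control and at least 183-fold higher in METTL7A embryos. In METTL7A embryos 3 of the 26 rose with stage, CALB1 and SLC34A2 among them, and 8 fell, among them MCU, TRPV6, SLC8B1, STIM1 and SLC20A1. That is 42.3% of the list, near the 40.2% of all genes. UCP2 did not pass in either treatment.

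The list of hypoxia-inducible factors and their targets, to which STC1 belongs in human cells, had 31 of 32 members tested. At the 2-cell stage, where STC1 was higher in METTL7A embryos, 0 of the 31 passed, and HIF1A, the oxygen-regulated subunit, stood at 123.0 and 170.4 CPM against 159.3 and 158.8 CPM. In 8-cell embryos 5 of the 31 (16.1%) fell in METTL7A embryos and 0 rose, where 4.55% of all genes fell, with a list median of -0.87 against 0.14 over all genes. The 5 were the glycolytic enzymes ENO1, PGK1 and ALDOA, the collagen prolyl hydroxylase subunit P4HA1 and NDRG1. ENO1 stood at 2351 and 320.9 CPM in Control and at 16.03 and 17.3 CPM in METTL7A 8-cell embryos (log2 fold change -6.32, SE 0.869, adjusted p = 0.0147). P4HA1 stood at 316.3 and 74.7 CPM against 12.6 and 11.4 CPM (log2 fold change -4.03), and PGK1 at 1443 and 226.7 CPM against 38.7 and 54.7 CPM (-4.16). ALDOA had a log2 fold change of -3.40, and NDRG1 went from 261 counts over the Control libraries to 0, at least 63.6-fold lower. The calls of ENO1, P4HA1 and PGK1 were each lost in 4 alternatives, that of ALDOA in 6 and that of NDRG1 in 7. ENO1 and PGK1 were 7.33-fold and 6.36-fold higher in Control 8-cell replicate 1 than in replicate 2, as the stromal markers were by 5.75-fold, and the part of other cells was not tested. HIF1A (adjusted p = 0.0643) and VEGFA, the angiogenic growth factor (0.767), did not pass.

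With stage in Control embryos 14 of the 31 rose and 5 fell, or 61.3% against 52.7% of all genes called. SLC2A3, a glucose transporter, rose from 12.7 and 13.1 CPM to 195.0 and 576.4 CPM, and VEGFA from 1.28 and 1.17 CPM to 12.02 and 5.11 CPM. BNIP3L, a mitophagy receptor, and ANKRD37 rose as well, and DDIT4, an inhibitor of mTOR signalling, fell (log2 fold changes 2.31, 3.76 and -2.01). In METTL7A embryos, in which STC1 was lower at the 8-cell stage, 7 of the 31 rose and 5 fell with stage, 38.7% of the list and near the 40.2% of all genes. SLC2A3 (log2 fold change 4.97), ANKRD37 (5.10), VEGFA (2.95) and the hexokinase HK2 (1.90) rose, and BNIP3 (-1.08) and VHL (-1.32), which marks hypoxia-inducible factors for degradation, fell.

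The list of ATF4 and the unfolded protein response, to which STC2 belongs in human cells, had 28 of 32 members tested. At the 2-cell stage 0 passed between treatments. At the 8-cell stage, where STC2 was higher in METTL7A embryos, 1 of the 28 rose and 1 fell, 7.14% of the list and near the 5.29% of all genes, with a list median of -0.27 against 0.14 over all genes. DDIT3, the stress transcription factor CHOP, stood at 348.8 and 455.5 CPM in Control and at 897.7 and 1129 CPM in METTL7A 8-cell embryos (log2 fold change 1.33, SE 0.300, adjusted p = 0.0426). This call was lost in 10 alternatives, among them the 2 groups alone, METTL7A and LOC781439 left out and the Control 2-cell pair summed, with adjusted p from 0.000703 to 0.308 over all of them. HERPUD1, a part of endoplasmic reticulum degradation, stood at 190.0 and 23.2 CPM in Control and at 8.79 and 9.13 CPM in METTL7A 8-cell embryos (log2 fold change -3.57, adjusted p = 0.0426), a call lost in 6 alternatives. ATF4 itself stood at 304.3 and 265.4 CPM against 256.9 and 343.0 CPM (adjusted p = 0.879), and its target ASNS, asparagine synthetase, did not pass (0.415).

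With stage 10 of the 28 rose and 7 fell in Control embryos, 60.7% against 52.7% of all genes called. In METTL7A embryos 6 rose and 8 fell, or 50% against 40.2% of all genes. ATF4 rose in both, with log2 fold changes of 1.45 and 1.79, and DDIT3 in both, with 3.19 and 4.34. DNAJB9, a chaperone of the endoplasmic reticulum, rose from 0.0825 and 0.173 CPM to 151.9 and 130.1 CPM in Control and from 1.14 and 0.930 CPM to 144.2 and 203.5 CPM in METTL7A embryos. TRIB3, a pseudokinase induced by ATF4, had 0 counts in the Control 2-cell libraries and 109 at the 8-cell stage, at least 49.4-fold higher. In METTL7A embryos TRIB3 and ATF3 rose with stage too. The stress sensor ERN1 fell in both treatments (log2 fold changes -3.24 and -2.13), as did the chaperone PDIA4 (-2.13 and -1.76) and SESN2 (-3.72 and -2.08). ASNS passed in neither.

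Across the 4 lists 96 genes were tested. Among 2-cell embryos 0 of the 96 passed between treatments with edgeR, 11 had an unadjusted p under 0.05, against 7.41% of all genes, and DESeq2 called 1 higher and 2 lower, against 1.2% of all genes. The METTL7A effect differed between the stages for 0 of the 96 with edgeR, 31 had an unadjusted p under 0.05, against 16% of all genes, and DESeq2 called 1 higher and 11 lower, against 6.08% of all genes. Of the 2 genes higher and 9 lower in METTL7A 8-cell embryos, 0 remained past the threshold without METTL7A 8-cell replicate 1 and 0 without replicate 2, when 2 of all genes were left. Without Control 8-cell replicate 1 none was higher and 5 were lower, while without replicate 2 the counts were 15 and 39. Without either METTL7A 2-cell library 0 were higher and 2 lower. ALDOA, CALB1, MICU2, HERPUD1, NDRG1 and DDIT3 were among those lost without Control 8-cell replicate 1.

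STC1 and STC2 did not run together across the libraries (Pearson r = 0.198 over 8 libraries that share 4 groups, on log2 CPM). The 10 genes most like each, by Pearson correlation over the 8 libraries among 12448 named genes, had 0 members in common. The r values are descriptions, since libraries of a group share their stage and treatment.

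KCNIP4, a potassium channel-interacting protein, was most like STC1 (r = 0.947), at 0.784 and 0.606 CPM in Control 2-cell, 1.31 and 2.48 in METTL7A 2-cell, 18.6 and 12.8 in Control 8-cell and 0.812 and 1.09 in METTL7A 8-cell embryos. DDX6, an RNA helicase of processing bodies, came next (r = 0.944) with a much flatter course, at 78.4 and 77.8, 96.3 and 98.2, 146.9 and 125.1, and 78.7 and 92.1 CPM in the same order of groups. PLEK followed (0.932), and below it came FAM122A (0.917), ZNF383_1 (0.914), GGTA1 (0.910), SDCCAG8 (0.905), TBC1D23 (0.903) and CDKL4 (0.901). The mean CPM was highest in Control 8-cell embryos in each of those named, as in STC1. With Spearman's correlation 3 of the 10 were kept.

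CHD1, a chromatin remodeller, was most like STC2 (r = 0.999), at 10.6 and 10.2 CPM in Control 2-cell, 10.5 and 11.7 in METTL7A 2-cell, 149.0 and 214.8 in Control 8-cell and 314.6 and 477.7 in METTL7A 8-cell embryos. RNF138, a ubiquitin ligase, followed (0.998), at 51.3 and 89.8 CPM in Control and 138.4 and 203.9 CPM in METTL7A 8-cell embryos and near 2 CPM at the 2-cell stage. FAM45A, ZIM3, KLF10, SBSPON, KLF3, ZNF432, ZNF394 and RBBP6 completed the 10, with r of 0.997 or more. SBSPON had no count at the 2-cell stage, as STC2 nearly had none, and reached 7.07 and 9.51 CPM in Control and 36.9 and 37.3 CPM in METTL7A 8-cell embryos. KLF10 and KLF3 are Krueppel-like transcription factors. With a prior count of 0.5 in place of 3 only 2 of the 10 were kept, and with Spearman's correlation 0 were.

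**Figure D4:**
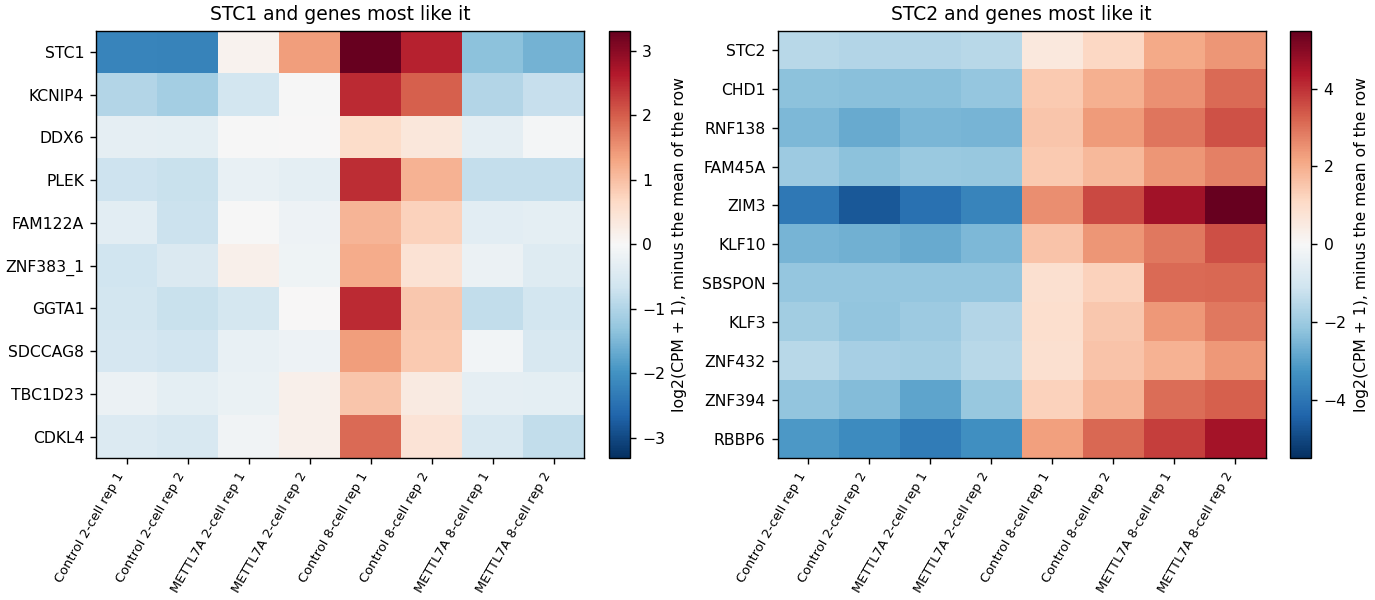
Heat maps of log2(CPM + 1), minus the mean of each row, for STC1 (left) and STC2 (right) in the top row and the genes most like each below, 9 for STC1 and 10 for STC2, across the 8 libraries, with red for higher and blue for lower than the row mean. The genes like STC1 peaked in the Control 8-cell libraries, and those like STC2 were low in all 2-cell and highest in the METTL7A 8-cell libraries.

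Genes near STC1 and STC2 were followed in the same comparisons. Neighbours were read from the gene order of a RefSeq annotation of the UOA_Brahman_1 assembly and were chosen after the values of the members were seen. They are the nearest 3 protein-coding genes on each side that have no LOC name and whose symbol is in the read-count table. Of the 19997 symbols there without a LOC name, 16029 are in that annotation, so nearer genes may have been passed over. Around STC1, NEFL fell with stage in Control and METTL7A embryos (log2 fold changes -1.41 and -1.21) and NEFM rose (2.00 and 2.11), where STC1 differed in direction between treatments. NKX2-6, ADAM7 and SLC25A37 were too low to be tested. Around STC2, CREBRF rose with stage in both (2.87 and 3.33), BOD1 fell in Control embryos (-2.25), and BNIP1, CPEB4 and C20H5orf47 passed in neither treatment, while NKX2-5 was too low to be tested. None of the tested neighbours named here passed between METTL7A and Control embryos at either stage. NEFM and NEFL had log2 fold changes of 1.16 and 0.78 in METTL7A 2-cell embryos, in the direction of STC1, and NEFL passed with the 2 groups alone (adjusted p = 0.0404). Their values at the 8-cell stage were 1.27 and 0.98, opposite to STC1, and NEFL passed without Control 8-cell replicate 2 (adjusted p = 0.0157). CREBRF and CPEB4 had log2 fold changes of 0.83 and 0.80 at the 8-cell stage, in the direction of STC2, and both passed without Control 8-cell replicate 2 (adjusted p = 0.000402 and 0.00440).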

How the data were processed

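Values are raw whole-number read counts per gene as deposited by the authors, with no normalization. Per the labels' protocols, embryos went directly into SMART-Seq v4 cDNA synthesis and Nextera XT library preparation, which keep no strand information, so reads of overlapping antisense genes are not separated. The tools named, per the submitters' processing notes, were Trim Galore 0.6.10, FastQC, STAR 2.7.11b, Subread 2.0.6 and DESeq2 1.44.0. Neither build nor annotation is stated in those notes, so no coordinates or sequences are printed. All 8 columns of the table were matched to samples by name (0 unused). An entry that names no gene held 0.184% to 0.950% of the counts and was left out.

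All 4 groups entered 1 fit in edgeR 4.0.16 (R 4.3.3, limma 3.58.1) with TMM factors, filterByExpr (minimum count 10, minimum total 15, 16149 genes left) and the robust quasi-likelihood test, 2-sided, with Benjamini-Hochberg adjustment over all genes tested and a threshold of 0.05. SEs are the log2 fold change over the square root of F. The procedure was checked on simulated data in which each gene had the same spread in all groups. That check does not cover groups of unequal spread, as these are. CPM use TMM-scaled library sizes. Groups with 0 counts have bounds against 3 counts over the group, and groups with 1 to 3 counts have exact 95% ratio intervals. Both account for counting error alone.

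The members and gene lists were chosen with earlier results of these data known. Named genes are STC1 and STC2, the 10 genes most like each (log2 CPM, prior count 3, mean of 1 CPM or more, no LOC names), all tested genes of the stanniocalcin and IGF list, 14 genes fixed by name, and up to 6 called genes per other list and comparison with the lowest p. The neighbours, the genes sharing the 4-fold course, METTL7A, LOC781439 and markers were added. A few genes that fall under these rules are not reported here. Markers of 4 cell-type lists were summed. The trophectoderm and epithelium list (14 genes) summed to 196.4 to 205.9 CPM in Control 2-cell, 200.9 and 234.6 in METTL7A 2-cell, 598.0 and 266.4 in Control 8-cell and 310.2 and 453.3 in METTL7A 8-cell embryos. Alternatives were RLE size factors, no filter, DESeq2 1.42.0, the 2 groups alone, a replicate block, METTL7A and LOC781439 left out, the Control 2-cell pair summed, each library left out, and, for the most alike genes, another prior count and Spearman's correlation.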

Additional observations from a re-analysis of the deposited data

Results flagged for a closer look

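The METTL7A effect on STC1 at the 8-cell stage minus that at the 2-cell stage was -8.00 on the log2 scale (SE 0.698). It stands here because both METTL7A libraries were above both Control libraries at the 2-cell stage (23.4 and 57.0 against 3.96 and 3.81 CPM) and below both at the 8-cell stage (7.68 and 6.53 against 221.4 and 130.0 CPM). STC1 was chosen with these values known, so the difference is given without a test.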

How the results depend on the processing

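The STC1 and STC2 values kept their direction under all alternatives run. They moved by less than the spread between replicates, except the STC2 stage ratio, which went from 216 to 107.1 in Control embryos without Control 2-cell replicate 2 and from 545.5 to 295.5 in METTL7A embryos without METTL7A 2-cell replicate 1. With 1 library left out, the STC1 log2 fold change ran from 2.58 to 3.91 (METTL7A, 2-cell), -4.94 to -4.20 (METTL7A, 8-cell), 5.05 to 5.78 (stage, Control), -3.06 to -1.74 (stage, METTL7A) and -8.53 to -7.19 (difference of effects). STC2 ran from 1.27 to 1.97 (METTL7A, 8-cell), and its stage ratio from 107.1 to 263.7 in Control and 295.5 to 598.1 in METTL7A embryos. No ratio is given where the remaining 2-cell library had 0 counts, nor was it run under the other alternatives than RLE and METTL7A with LOC781439 left out.

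Counts of called genes were less stable. METTL7A against Control at the 2-cell stage called 2 genes, 100 with no filter, 152 by DESeq2, 1005 with the 2 groups alone, 0 with METTL7A and LOC781439 left out, and 2 to 50 with 1 library left out. At the 8-cell stage it called 854, then 2767, 2385 and 283 in the first 3 of these, and 2 to 7129 with 1 library left out. The lowest were without METTL7A 8-cell replicate 1 or 2, and the highest without Control 8-cell replicate 2. Stage in Control called 8516, 5404 with the Control 2-cell pair summed and 5127 to 10759 with 1 library left out, and stage in METTL7A 6496 and 3276 to 9149. The difference of effects called 2 genes, 1 with RLE, 1354 with no filter, 887 by DESeq2, 24 with the replicate block, 1 with METTL7A and LOC781439 left out, 0 with the pair summed, and 0 to 4568 with 1 library left out. Of these calls 0 were higher and 2 lower, and with no filter 193 and 1161. RLE moved the median of all genes by 0.11 for stage in Control, and leaving out METTL7A and LOC781439 moved it by -0.24 for METTL7A at the 8-cell stage and -0.27 for stage in METTL7A.

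Of the list genes, 0 were higher and 0 lower in METTL7A 2-cell embryos, 1 and 1 with no filter, 1 and 2 by DESeq2, 1 and 9 with the 2 groups alone, and 0 to 0 and 0 to 1 with 1 library left out. At the 8-cell stage 2 were higher, 0 with the 2 groups alone, 1 with METTL7A and LOC781439 left out, 1 with the pair summed and 0 to 15 with 1 library left out. There 9 were lower, 30 with no filter, 24 by DESeq2, 5 with the 2 groups alone, 16 with METTL7A and LOC781439 left out and 0 to 39 with 1 library left out. Stage in Control had 34 higher (21 with the 2 groups alone, 23 to 45 with 1 library left out) and 28 lower (19 to 33), and stage in METTL7A 16 higher (10 to 22) and 22 lower (9 to 38). The difference of effects had 0 higher, 2 with no filter, 1 by DESeq2 and 0 to 14 with 1 library left out, and 0 lower, 19 with no filter, 11 by DESeq2, 1 with the replicate block and 0 to 30. Of the 10 genes most like STC1, 3 were kept with Spearman's correlation, and of those most like STC2, 2 with a prior count of 0.5 and 0 with Spearman's correlation. The causes were not tested. Of the other alternative values, 3351 stayed as they were, 234 counts moved by over 1.5 times, 107 calls were lost and 72 gained.

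Deviations from the group means correlated at -0.0275 to 0.0586 between same-numbered libraries. With 2 libraries per group this cannot tell whether replicate numbers pair the libraries. With the replicate block the STC1 values were 3.36 (METTL7A, 2-cell), -4.63 (METTL7A, 8-cell), 5.503 and -2.49 (stage), and STC2 was 1.60 at the 8-cell stage. Depth limits STC2 at the 2-cell stage, where each library had 0 or 1 count.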
